A study of Mus musculus with 2 samples.

Results

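DNA methylation was examined at the loci of 5 transcription factors of the primitive endoderm, Gata6, Gata4, Sox17, Sox7 and Foxa2, in F9 cells before and after differentiation. F9 is a mouse embryonal carcinoma line, a tumour-derived stem cell line that retinoic acid turns toward endoderm. The members were all sites listed in either of 2 libraries inside 1 fixed window per gene, reaching about 25 kb past each end of the gene. They numbered 393 of the 1370254 sites listed in the whole series, with 166 at Gata4, 76 at Gata6, 70 at Sox7, 56 at Foxa2 and 25 at Sox17. The undifferentiated library came from F9 cells kept on gelatin-coated plates. The differentiated library came from cells at day 4, plated in low-attachment dishes with 1 µM retinoic acid. The names of both libraries also carry the word untreated, and the agent this refers to is not given in the sources used here. With 1 library per group and a single cell line, no difference below has a replicate check, and each test sets 1 library against the other without speaking for the conditions.

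Primitive endoderm is the extraembryonic layer that forms next to the epiblast in the blastocyst and later lines the yolk sac. GATA6, a zinc finger factor, stands at the head of its programme and represses the pluripotent state. GATA4 is its close relative, SOX17 and SOX7 are HMG-box factors of the same lineage, and FOXA2 is a forkhead factor of visceral and definitive endoderm. In many cell types the CpG-rich starts of such developmental genes stay free of DNA methylation whether or not the gene is active. Expression of these genes was not measured here.

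MethylRAD was the assay. The enzyme FspEI cuts beside methylated cytosines and releases short fragments, so that more reads at a site stand for more methylation. Sites carried 1 of 3 motifs: CCGG, which holds a CpG, and CCAGG or CCTGG, where the methylated cytosine is outside CpG. A site was listed only from 5 counts upwards. An unlisted site therefore had 0 to 4 counts, which is up to 0.240 counts per 1000000 CCGG counts (CPM) before differentiation and 0.255 at day 4, and cannot be read as unmethylated. The CCGG totals of the undifferentiated and the differentiated library were 16687588 and 15705436 counts. Where 2 counts are given together below, the undifferentiated library comes first. Levels below are in CPM, and ratios are differentiated over undifferentiated with 4 counts given to an unlisted site. The 20816 windows of protein-coding genes with 25 kb either side served as the background and had a median log2 ratio of 0.05. Intervals cover counting error only.

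Foxa2 was the only 1 of the 5 genes with an entry among the RefSeq promoter sequences (GRCm38.p6). Both of its start windows that contain a CCGG motif are shown, because they let the absence of listed sites be read against the letters themselves. Each runs 5′ to 3′ on the minus strand from 250 bases before to 50 bases after a start site, with CCGG in capitals.
Foxa2 outermost start, chr2:148046920-148047219: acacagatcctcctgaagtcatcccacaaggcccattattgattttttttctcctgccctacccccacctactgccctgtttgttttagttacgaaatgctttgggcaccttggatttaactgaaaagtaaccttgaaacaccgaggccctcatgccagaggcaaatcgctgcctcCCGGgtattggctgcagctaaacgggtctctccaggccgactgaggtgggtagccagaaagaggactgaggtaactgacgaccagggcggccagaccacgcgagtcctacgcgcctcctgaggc
Foxa2 inner start, chr2:148045899-148046198: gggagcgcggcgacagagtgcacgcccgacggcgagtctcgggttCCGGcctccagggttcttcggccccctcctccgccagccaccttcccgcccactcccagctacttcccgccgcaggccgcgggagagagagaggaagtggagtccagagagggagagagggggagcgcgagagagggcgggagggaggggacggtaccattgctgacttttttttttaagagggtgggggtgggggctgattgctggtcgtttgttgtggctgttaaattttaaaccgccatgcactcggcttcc
The outermost window held 12 CpGs and a single CCGG, at base 177 of the window and position 148047040 of chromosome 2. The inner window held 23 CpGs and a single CCGG, at base 46 and position 148046150. Neither CCGG was listed in either library, so each had at most 4 counts in both states. The third Foxa2 window in the table, at the innermost start, held 13 CpGs but no CCGG, and the assay had nothing to read there in CpG context.

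An unlisted CCGG beside a start site was the usual case. Among 32851 RefSeq promoter windows of the same length, 52.8% held CCGG (which reads the same on both strands), and in 72.5% of those no CCGG was listed in either library. Of 39736 distinct CCGG positions in these windows, 10.3% were listed before differentiation and 11.7% at day 4. No listed CCGG site lay between positions 148045166 and 148047400 at Foxa2, a stretch of 2234 bp that includes its outermost start.

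The start of Gata6 was likewise bare in the undifferentiated library. The stretch around it without a listed CCGG measured 2654 bp, and the nearest listed CCGG lay 2471 bp away before differentiation and 813 bp away at day 4. At Sox7 the corresponding stretch was 3341 bp, and the nearest listed CCGG was 2787 bp away before and 554 bp away at day 4. Sox17 and Gata4 had listed CCGG sites closer in: 344 and 282 bp from the Sox17 start, and 41 and 9 bp from the outermost Gata4 start, in the undifferentiated and differentiated library. Starts were taken as the outer end of the RefSeq gene, with the strand from general knowledge. Starts of shorter transcripts, such as those inside Gata4, were not used here, and the outermost Gata4 start may not be its main start. How many CCGG motifs the stretches around the other 4 starts hold was not analysed here, so their bareness cannot be read as low methylation.

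**Figure D1:**
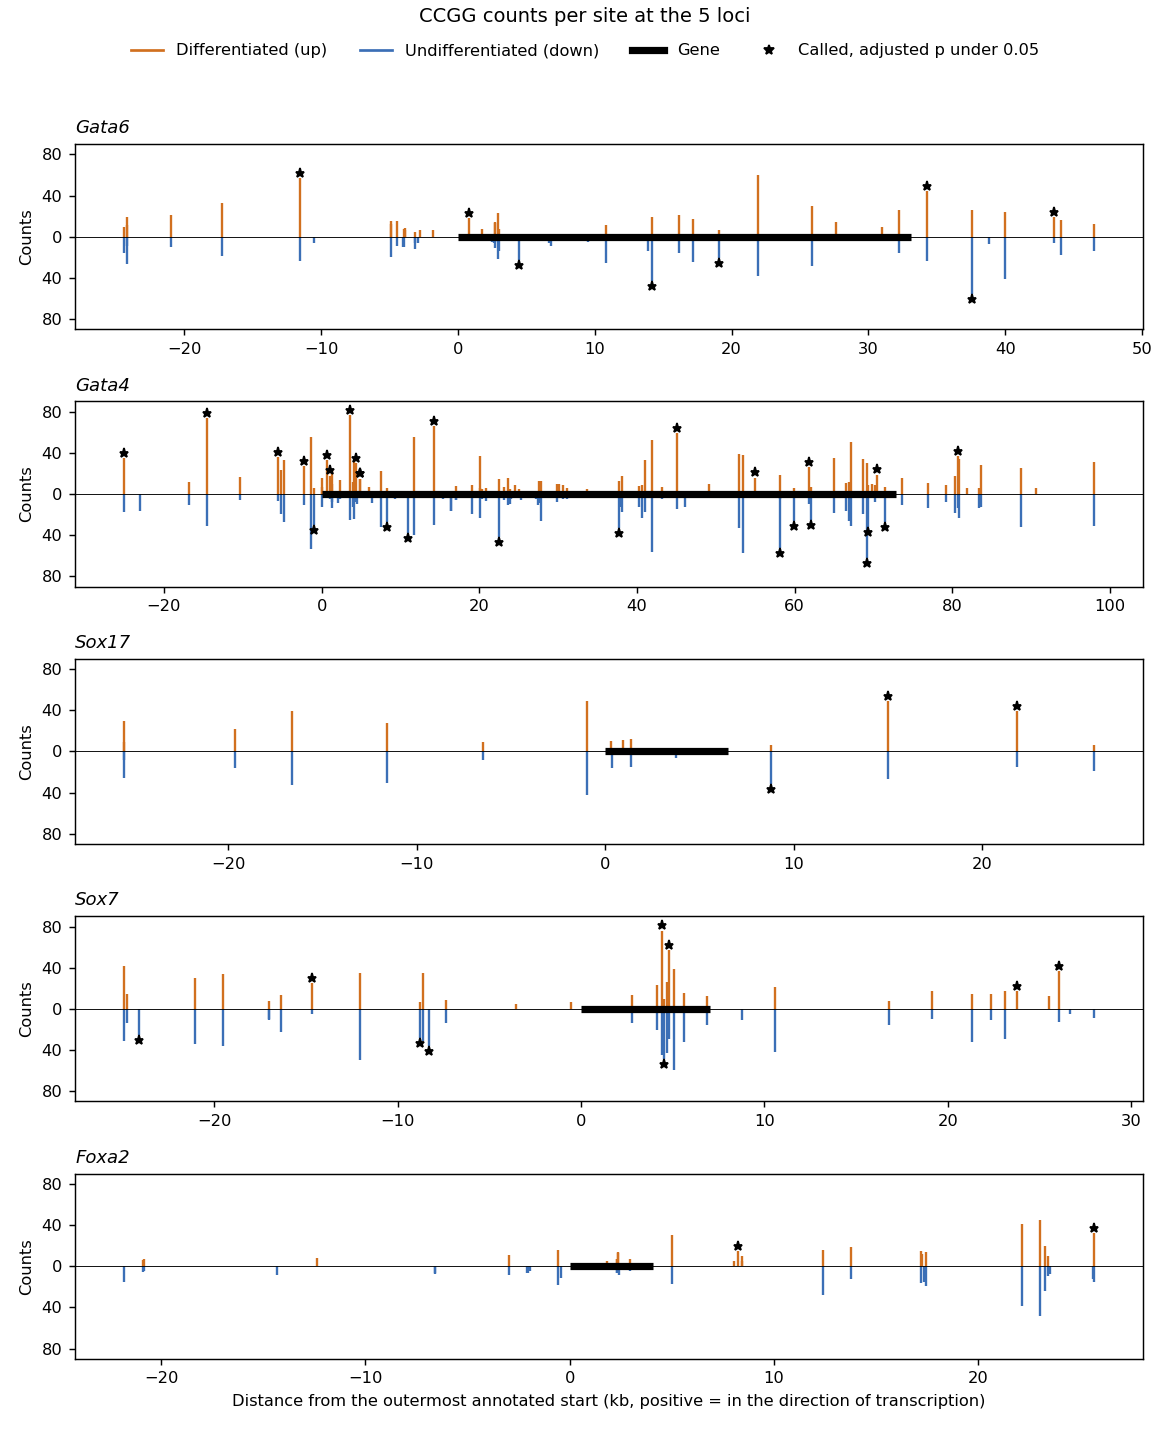
Counts at each listed CCGG site (vertical axis, differentiated library upwards and undifferentiated library downwards) against distance from the outermost annotated start in kb, 1 panel per gene. Black bars are genes and stars mark called sites. The most are at Gata4 (16 higher and 11 lower of 96 tested, 28.1%, beside 23.5% of all sites), which holds 103 of the 243 sites. Of its called rises, 7 lie within 5000 bp of the outermost start and 9 farther out.

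Across the 5 loci together, 243 CCGG sites were compared, and 156 of them (64.2%) were listed in both libraries, against 69.9% of all CCGG sites. Another 49 (20.2%) were listed in the undifferentiated library alone and 38 (15.6%) in the differentiated library alone, beside 17.6% and 12.5% of all CCGG sites. The median listed counts were 15 and 14.5, below the 19 and 17 of all listed CCGG sites. Site by site, counts moved in both directions. Fisher's exact test, two-sided with Benjamini-Hochberg adjustment over all 763323 CCGG sites tested, called 49 of the 228 member sites tested, 29 higher and 20 lower in the differentiated library. That is 21.5% of member sites, where 23.5% of all sites were called. By direction it was 12.7% higher and 8.77% lower, beside 11.6% and 11.9% of all sites. The share and the spread of site ratios were thus near the background: the standard deviation of the log2 ratio was 1.19 over member sites and 1.19 over all sites tested. Called sites that differed by at least 2-fold numbered 45 of the 228 tested, beside 21.4% of all sites tested. Of the 49 called sites, 37 were listed in both libraries. The split between higher and lower depended on the scaling, with 18 higher and 31 lower under median-ratio scaling, where 8.43% of all sites were higher and 15.0% lower. That scaling sets the median ratio of sites well covered in both libraries to 1 and lowers every log2 ratio by 0.16.

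**Figure D2:**
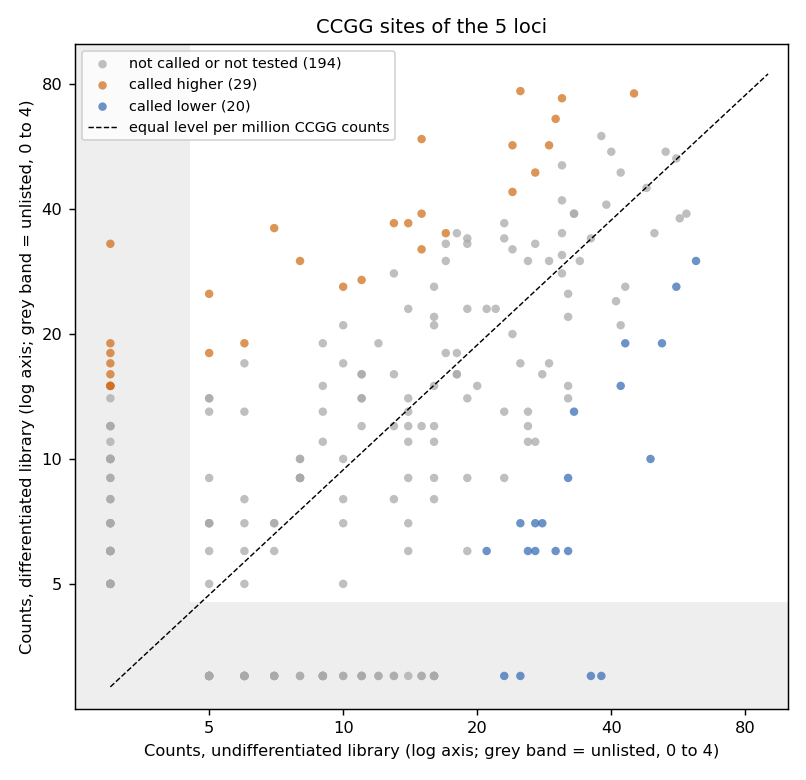
Counts of the 243 CCGG sites of the 5 loci in the undifferentiated (horizontal) and differentiated (vertical) library on log axes, with unlisted sites drawn inside the grey bands at a fixed place. Called sites, 29 higher and 20 lower, lie on both sides of the dashed line of equal level.

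Summed over each locus, differences were small. The log2 ratio of CCGG counts was 0.22 at Gata4, 0.20 at Sox17, 0.09 at Foxa2, 0.08 at Gata6 and -0.16 at Sox7. Only Gata4 passed the test, 1 of 5 loci, where 39.4% of all gene windows were called (26.7% higher and 12.7% lower). Of the called gene windows 67.7% were higher, and under median-ratio scaling 17.8% were. All 5 ratios lay between the 5th percentile (-0.41) and the 95th percentile (0.43) of gene windows.

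**Figure D3:**
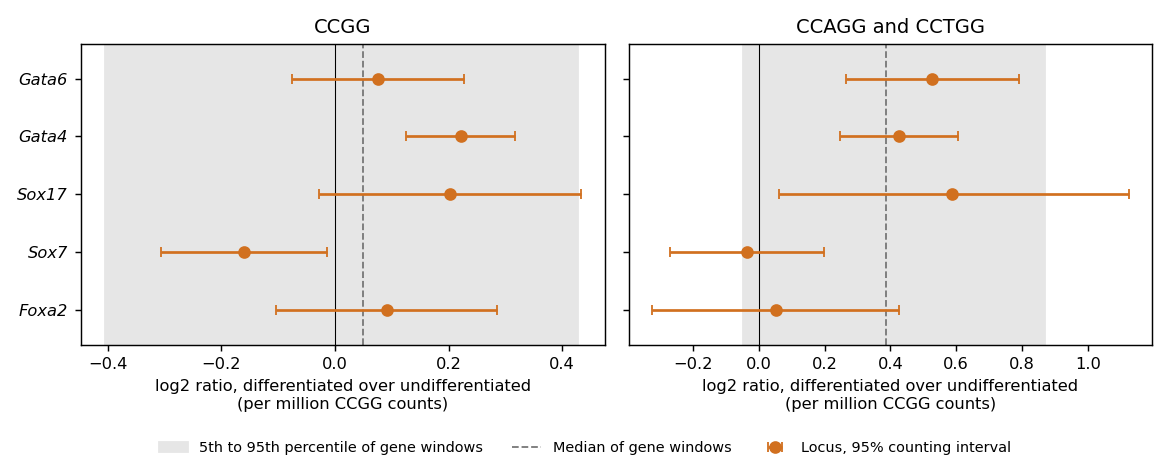
Log2 ratio of summed counts per locus (points, with 95% counting intervals) for CCGG sites on the left and CCAGG and CCTGG sites on the right, both scaled to the CCGG totals. All 5 CCGG ratios, from -0.16 at Sox7 to 0.22 at Gata4, lie inside the grey band between the 5th and 95th percentile of gene windows.

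Gata6, the earliest factor of the lineage, lies at positions 11052510 to 11085636 of chromosome 18, inside a window from 11027000 to 11111000. Its 49 CCGG sites summed to 684 listed counts before differentiation and 666 at day 4, levels of 41.0 and 42.4 CPM. The log2 ratio with unlisted sites at 4 counts was 0.08 (95% interval -0.08 to 0.23), and Fisher's exact test gave an adjusted p of 0.457. Leaving unlisted sites anywhere between 0 and 4 counts, the ratio could lie between -0.02 and 0.15. Its direction is therefore not settled. Its log2 ratio was above that of 54.8% of gene windows.

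Within Gata6 the called sites pointed both ways, 4 higher and 4 lower of 47 tested (17.0% called, beside 23.5% of all sites). The site nearest the start, position 11053323, lies 813 bp inside the gene. It was unlisted in the undifferentiated library and had 18 counts in the differentiated library, at least 4.78-fold higher (Fisher's exact test, adjusted p 0.0136). All 3 CCGG sites listed within 2000 bp of the start were listed in the differentiated library only, with 31 counts in total. Over all CCGG sites this share was 12.5%. Besides position 11053323 these were positions 11050669 and 11054292, with 6 and 7 counts, near the lowest listed count of 5. Neither was called (adjusted p 0.696 and 0.560). Within 5000 bp this was no longer so, with 159 listed counts against 162 over 21 sites. Position 11040956, 11554 bp upstream and just outside the neighbouring non-coding RNA gene Gata6os, rose from 24 to 57 counts (2.52-fold, adjusted p 0.00117). Position 11096063, downstream of the gene, rose from 6 to 19 counts (adjusted p 0.0371), a call lost under median-ratio scaling (adjusted p 0.0610).

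The falls at Gata6 lay mostly inside the gene. Position 11056938, 4428 bp from the start, had 23 counts in the undifferentiated library and was unlisted in the differentiated library, at least 5.41-fold lower (Fisher's exact test, adjusted p 0.00365). Position 11071565, whose deposited alignment was not a full match, fell from 21 to 6 counts (adjusted p 0.0321) and position 11066721 from 43 to 19 counts (adjusted p 0.0263). Downstream, position 11090086 fell from 56 to 26 counts (adjusted p 0.0166). The site with the highest summed count, position 11074422, had 38 and 60 counts and did not pass the test (adjusted p 0.0591), but did with unlisted sites at 0 counts (adjusted p 0.0399).

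Gata4, the second GATA factor of the lineage, lies at positions 63198914 to 63271712 of chromosome 14. The Gata4 window from 63173000 to 63297000 also covers Neil2, a DNA glycosylase gene, and part of Fdft1. Its 103 CCGG sites summed to 1625 listed counts before differentiation and 1785 at day 4, levels of 97.4 and 114 CPM. The log2 ratio was 0.22 (95% interval 0.13 to 0.32), with 0.17 to 0.28 possible for unlisted sites of 0 to 4 counts. Fisher's exact test gave an adjusted p of 4.88e-05. The ratio stood above that of 80.1% of gene windows. The call was lost under median-ratio scaling (0.06, adjusted p 0.282) and when the window was narrowed by 20 kb at each end (0.12, adjusted p 0.0560). With the divisors of the deposited RPM values the ratio was -0.01 (adjusted p 0.943), so its direction depends on the scaling.

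Around its outermost start the Gata4 ratio was higher than over the rest of the locus, a difference that was not itself tested. This start may not be the main start of the gene, and starts inside the gene were not examined. Within 5000 bp of that start, 19 CCGG sites held 255 listed counts before differentiation and 423 at day 4. Their log2 ratio was 0.76 (95% interval 0.53 to 0.98), and 7 sites were called higher and 1 lower. That is 42.1% of the sites tested there, where 11.6% of all sites were called higher and 11.9% lower. The log2 ratio was smaller closer in, 0.45 (0.11 to 0.79) over the 8 sites within 2000 bp. Within 1000 bp it was 0.37 (-0.19 to 0.93) over 4 sites, of which 1 was called higher and 1 lower. Over sites listed in both libraries it was 0.67 within 5000 bp and 0.14 within 2000 bp. Within 1000 bp it turned to -0.88, over 2 such sites. The remaining 84 sites of the locus gave 1370 and 1362 listed counts, a log2 ratio of 0.09 (-0.02 to 0.20), with 9 called higher and 10 lower. Against windows of 5 kb either side of 12178 gene starts, a background added after these sites had been seen, the Gata4 start was called (Fisher's exact test, adjusted p 2.72e-09). In this background 30.6% of windows were called, 16.8% higher and 13.8% lower, and 7.57% had a higher log2 ratio than Gata4. The log2 ratio at the Gata4 start was 0.60 under median-ratio scaling, 0.53 with the divisors of the deposited RPM values, and 0.87 without the site of highest summed count. The starts of Sox7 (0.14), Sox17 (0.14), Foxa2 (0.09) and Gata6 (0.08) were not called in the same test, with adjusted p from 0.498 to 0.798. Whether Gata4 differs from these 4 was not tested.

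Single sites near the Gata4 start differed by several-fold. Position 63270982, 730 bp inside the gene, was unlisted in the undifferentiated library and had 33 counts in the differentiated library, at least 8.77-fold higher (Fisher's exact test, adjusted p 1.96e-05). Position 63277194, 5482 bp upstream, rose from 7 to 36 counts (5.46-fold, adjusted p 7.44e-05). Position 63272644, 932 bp upstream, went the other way, from 30 to 6 counts (adjusted p 0.00123). On the start itself, position 63271671 had 13 and 16 counts, and position 63271721 was unlisted in the undifferentiated library and had 7 counts in the differentiated library, without a call at either (adjusted p 0.721 and 0.560). Within 2000 bp of the start 7 of 8 CCGG sites had a ratio above 0, and position 63272644 was the exception. Position 63268163, 3549 bp inside the gene, rose from 25 to 77 counts, the highest count of any site at the 5 loci. Of the other called rises near the start, positions 63266888 and 63266898 were both unlisted in the undifferentiated library, both had 15 counts in the differentiated library, and lie close enough to be covered by the same reads.

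Farther into Gata4 the largest fall was at position 63260791, 10921 bp from the start, with 38 counts in the undifferentiated library and no listing in the differentiated library. It was at least 8.94-fold lower (Fisher's exact test, adjusted p 6.49e-06). Position 63263374 fell from 27 to 6 counts (adjusted p 0.00384). Near the end of the gene, position 63201247 was unlisted and then had 19 counts (adjusted p 0.00903). The 2 sites of highest summed count, positions 63229852 with 56 and 53 counts and 63273046 with 53 and 55 counts, were not called (adjusted p 1 and 0.766). Over the gene body as a whole 11 sites were called higher and 10 lower, and the log2 ratio was 0.12, while upstream of the gene it was 0.59 (0.34 to 0.84).

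Sox17, an HMG-box factor of primitive and definitive endoderm, lies at positions 4490928 to 4497426 of chromosome 1. Its window from 4465000 to 4523000 held the fewest sites of the 5, 16 with CCGG. They summed to 294 listed counts before differentiation and 319 at day 4, levels of 17.6 and 20.3 CPM. The log2 ratio was 0.20 (95% interval -0.03 to 0.43), and Fisher's exact test gave an adjusted p of 0.152. Its direction is not settled: the ratio was -0.22 (adjusted p 0.400) with the window narrowed by 20 kb at each end, and -0.02 with the divisors of the deposited RPM values. All 7 sites upstream of the gene were listed in both libraries, with 164 and 186 counts, and none of them was called. The highest of these, position 4498375, lies 949 bp before the start and had 42 and 49 counts (adjusted p 0.539).

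Inside Sox17 the listed sites were few and low. Position 4497082, 344 bp from the start, had 16 counts in the undifferentiated library and was unlisted in the differentiated library (Fisher's exact test, adjusted p 0.0516). Positions 4497144 and 4496481 were unlisted in the undifferentiated library and had 10 and 11 counts in the differentiated library (adjusted p 0.246 and 0.180). These neighbouring sites swapped listing between the libraries without a call. With unlisted sites at 0 counts all 3 were called (adjusted p 0.000274, 0.00301 and 0.00172), and position 4497082 was also called lower under median-ratio scaling (adjusted p 0.0305). The called sites of the locus all lay downstream of the gene. Position 4475557 rose from 15 to 39 counts (adjusted p 0.00505) and position 4482396 from 27 to 49 counts (adjusted p 0.0292, but 0.0783 under median-ratio scaling). Position 4488606 fell from 32 to 6 counts (5.02-fold, adjusted p 0.000576).

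Sox7, the partner HMG-box factor, lies at positions 63943706 to 63950732 of chromosome 14, with a window from 63918000 to 63975000. Its 37 CCGG sites summed to 834 listed counts before differentiation and 692 at day 4, levels of 49.98 and 44.1 CPM. The log2 ratio was -0.16 (95% interval -0.31 to -0.01), below zero for any count of 0 to 4 at unlisted sites (-0.21 to -0.13). It did not pass the test over all gene windows (Fisher's exact test, adjusted p 0.0694). Of gene windows, 17.9% had a lower ratio. The difference was called when either scaling alternative was used, with -0.32 (adjusted p 0.000103) under median-ratio scaling, and also without the site of highest summed count (-0.24, adjusted p 0.00582). Under the 2 scalings 43.95% and 55.6% of all gene windows were called, mostly lower. Over sites listed in both libraries the Sox7 ratio was -0.09 (adjusted p 0.362). Nor was it called over full-match alignments (-0.15, adjusted p 0.103) or with the window narrowed by 20 kb at each end (-0.17, adjusted p 0.216).

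At Sox7 most counts lay away from the start. The start was nearly bare, with a single CCGG site within 2000 bp, position 63943152, unlisted in the undifferentiated library and at 7 counts in the differentiated library. A dense group of CCGG sites followed toward the end of the gene, and the 9 sites in the gene body were all listed in both libraries with 308 and 271 counts. Within this group the changes ran in opposite directions. Position 63948105 rose from 45 to 76 counts (Fisher's exact test, adjusted p 0.0126), a call lost with the RPM divisors (adjusted p 0.0812). Position 63948222, its neighbour, fell from 49 to 10 counts (4.61-fold, adjusted p 2.93e-05). Position 63948787 had 59 and 39 counts and was not called (adjusted p 0.209).

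Upstream of Sox7 the log2 ratio was -0.28 (95% interval -0.51 to -0.05), with 3 sites called lower and 1 higher. Position 63935410, 8296 bp upstream, had 36 counts in the undifferentiated library and was unlisted in the differentiated library, at least 8.47-fold lower (Fisher's exact test, adjusted p 1.53e-05). Position 63919589 had 25 counts and was then unlisted (adjusted p 0.00162); it falls in Pinx1, the neighbouring gene. Position 63929008 rose from 5 to 25 counts (5.31-fold, adjusted p 0.00180). Downstream, position 63969746 rose from 13 to 37 counts (adjusted p 0.00337), and position 63967481 was unlisted and then had 17 counts (adjusted p 0.0203).

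Foxa2, the forkhead factor, lies at positions 148042877 to 148046969 of chromosome 2, with a window from 148017000 to 148072000 that overlaps the long non-coding RNA gene 9030622O22Rik. Its 38 CCGG sites summed to 409 listed counts before differentiation and 390 at day 4, levels of 24.5 and 24.8 CPM. The log2 ratio was 0.09 (95% interval -0.10 to 0.29), with an adjusted p of 0.490 by Fisher's exact test. Unlisted sites leave it between -0.08 and 0.19, so its direction is not settled. With the window narrowed by 20 kb at each end the ratio was 0.40 and was called (adjusted p 0.0454, over gene windows that kept their 25 kb flanks).

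Counts per site were low at Foxa2. The mean count per CCGG site over both libraries, with 4 counts for an unlisted site, was 11.5, and 4.47% of gene windows had a lower mean. Gata6 followed with 14.6 (13.2% of windows lower), then Gata4 with 17.2 (28.1%), Sox17 with 19.7 (51.5%) and Sox7 with 21.2 (66.8%). The median over gene windows was 19.5. Foxa2 nevertheless had more listed CCGG sites per kb, 0.691, than 74.6% of gene windows. Only 19 of its 38 sites (50%) were listed in both libraries. These levels are a description, with no test.

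**Figure D4:**
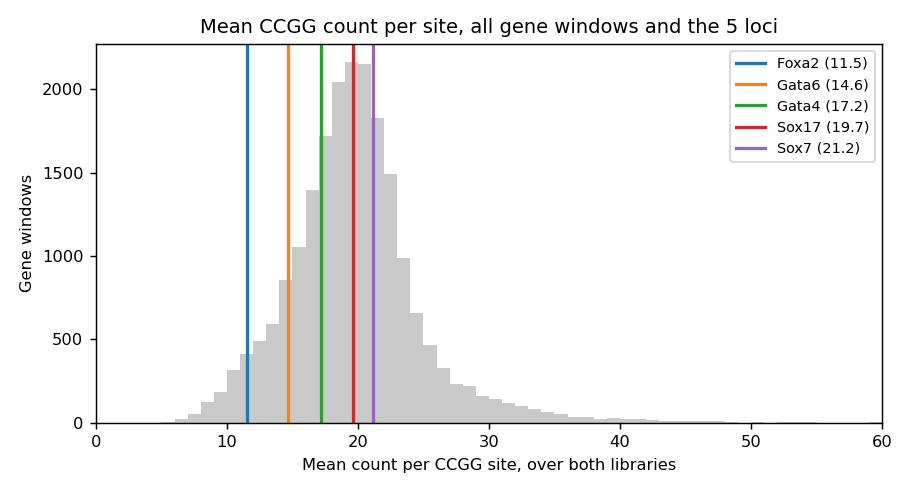
Number of gene windows (vertical axis) by mean count per CCGG site over both libraries (horizontal axis), with a line for each of the 5 loci and means above 60 not drawn. Foxa2 (11.5) and Gata6 (14.6) lie in the lower part of the distribution, and Sox7 (21.2) lies just above its middle.

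Inside Foxa2 itself, 7 listed CCGG sites had medians of 6.5 and 7 counts. Upstream of the gene 8 of 13 sites were listed in the undifferentiated library only and 1 in the differentiated library only, where these shares were 17.6% and 12.5% over all CCGG sites. None was called, and the log2 ratio was -0.38 (95% interval -0.82 to 0.04). Nearest to the printed promoter, position 148047400, 431 bp upstream, had 11 counts and was then unlisted (Fisher's exact test, adjusted p 0.261, or 0.00399 with unlisted sites at 0 counts), and position 148047529 had 18 and 16 counts (adjusted p 1). Both called sites lay downstream and rose. Position 148021303 went from 15 to 32 counts (adjusted p 0.0378), and position 148038735 from no listing to 15 counts (adjusted p 0.0440). Neither call held under median-ratio scaling (adjusted p 0.0928 and 0.0731). Position 148038735 belongs to 4 neighbouring CCGG sites in 9030622O22Rik, noticed after their values were seen. Positions 148038536, 148038550, 148038735 and 148038910 had 5, 10, 15 and 5 counts in the differentiated library, and none was listed in the undifferentiated library. The first pair of these lies within 16 bp and can share reads. The highest sites of the locus, positions 148023966 with 48 and 45 counts and 148024833 with 39 and 41 counts, were not called (adjusted p 1 and 0.787).

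At CCAGG and CCTGG sites, which read methylation outside CpG, the 5 loci held 149 sites, of which 41 were listed in both libraries, 34 only before differentiation and 74 only at day 4. As shares these were 27.5%, 22.8% and 49.7%, beside 34.1%, 21.2% and 44.7% of all such sites. Of 113 sites tested, 4 were called higher and 1 lower, 4.42%, where 7.31% of all such sites were called, 6.03% higher and 1.28% lower. The locus sums rose at 3 loci by Fisher's exact test on the CCGG totals. The log2 ratio was 0.43 at Gata4 (318 to 530 listed counts, adjusted p 1.07e-05), 0.53 at Gata6 (154 to 269, adjusted p 0.000172) and 0.59 at Sox17 (29 to 71, adjusted p 0.0403). Such rises were the rule in these libraries: 67.9% of gene windows were called, 67.4% higher and 0.49% lower, with a median log2 ratio of 0.39. On the totals of the CCAGG and CCTGG sites themselves the 3 ratios turned to -0.19, -0.09 and -0.03, and none of the 3 was called.

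Sox7 and Foxa2 were not called on the CCGG totals. Sox7 had 260 and 258 listed counts, a log2 ratio of -0.03 (95% interval -0.27 to 0.20), and 5.38% of gene windows had a lower value. Foxa2 had 103 and 84 listed counts, a log2 ratio of 0.05 (-0.32 to 0.43), and 9.01% of gene windows were lower. Their adjusted p values by Fisher's exact test were 0.812 and 0.830, and their directions changed when unlisted sites were given 0 counts (0.08 and -0.21). Sox7 sites of both kinds can be covered by the same reads: its highest CCAGG site, position 63948798, had 59 and 39 counts, the same as the CCGG site at position 63948787. Over the Sox7 sites that lie over 100 bp away from any CCGG site the ratio was 0.34. On the totals of the CCAGG and CCTGG sites both loci were called lower, Sox7 at -0.65 and Foxa2 at -0.57, as were 42.6% of gene windows (44.2% called in all, 1.56% higher). The 1 non-CpG site beside the Sox7 start, position 63943446, 260 bp upstream, rose from 5 to 26 counts (adjusted p 0.00361).

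The highest non-CpG sites elsewhere were not called. At Gata4 position 63222522 had 41 and 19 counts (Fisher's exact test, adjusted p 0.0961), and at Gata6 position 11084952 had 20 and 41 counts (adjusted p 0.0585). At Sox17 position 4520192 had 13 and 22 counts (adjusted p 0.378), and at Foxa2 position 148023693 had 24 and 20 counts (adjusted p 0.851). Beside the rising CCGG site of Gata6 at position 11053323, the CCAGG site at position 11053312 was unlisted and then had 17 counts (adjusted p 0.0486). These sites lie within 16 bp of each other and can share reads, as 18 of the 149 non-CpG sites do with a CCGG site.

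The 5 factors were set beside a list of 43 other genes linked to primitive endoderm and its derivatives, all of which were matched and tested. The list is not limited to markers of the lineage and includes Fgf4 and Grb2. Their gene windows gave 15 calls higher and 5 lower (46.5% called, against 39.4% of all gene windows), and 23 did not pass the test. The median log2 ratio of the list was 0.07 and that of all gene windows 0.05. The 3 largest rises were at Apoa1, an apolipoprotein of visceral endoderm, with 1103 and 1422 counts (log2 ratio 0.45, Fisher's exact test, adjusted p 4.28e-13), at Fgfr2, a receptor for the FGF signal that drives the lineage (0.29, adjusted p 1.16e-09), and at Snai1, a repressor active in epithelial to mesenchymal transition (0.25, adjusted p 0.00166). The 3 largest falls were at Krt8, an epithelial keratin, with 897 and 707 counts (-0.26, adjusted p 0.00206), at Eomes, a T-box factor (-0.25, adjusted p 0.0147), and at Srgn, a proteoglycan core protein of parietal endoderm (-0.18, adjusted p 0.0159). The windows of Col4a1 and Col4a2 overlap, as do those of Krt8 and Krt18, so that these pairs share sites. Under median-ratio scaling 2 windows of the list were called higher and 16 lower, where 43.95% of all gene windows were called, 17.8% of those higher.

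**Figure D5:**
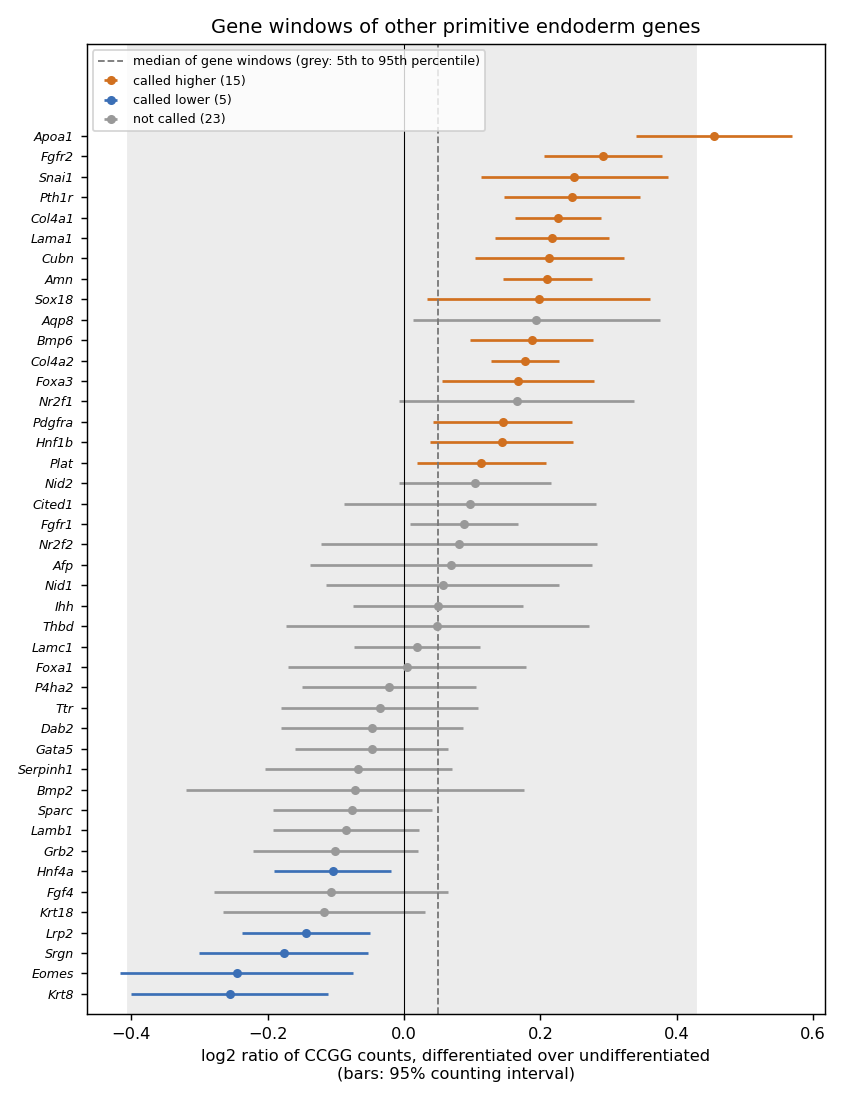
Log2 ratio of CCGG counts in the gene windows of the list of 43 other genes linked to primitive endoderm (points, with 95% counting intervals). Genes are ordered by ratio, on the scale of the CCGG totals. Of these, 15 were called higher, with Apoa1 at the top, and 5 lower, with Krt8 at the bottom, while 23 were not called.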

How the data were processed

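Genomic DNA of 2 F9 libraries was digested with FspEI and short gel-purified fragments were sequenced, per the labels' protocols. The submitters' processing notes name FastQC 0.11.3, Bowtie2 2.3.3 and GRCm38. As deposited by the authors, counts are whole reads per site, none under 5. The deposited RPM values, treated as a score, equal the count divided by a constant of the library and served only as an alternative scaling. The position of a site is the first base of its motif: of 10170 listed sites inside RefSeq promoter windows, 98.9% carried the motif there.

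Windows were those of the rule. Sites summing to at least 10 counts and gene windows with at least 50 (the 5 loci regardless) were compared by Fisher's exact test against the CCGG totals, with unlisted sites at 4 counts, adjusted over all sites or windows at a threshold of 0.05. Replicate models could not be fitted. Of 50 positions whose motif differed between libraries, 1 lay in the loci and was left out. Ratio intervals are exact (Clopper-Pearson). Tests were checked on simulated data, with no result given here, and such a check cannot replace replicate libraries. Members, lists and rules were chosen with earlier results of these data known. Sites named were, per locus, the 2 of highest summed count, the 3 largest rises and falls among called CCGG sites, up to 5 within 1000 bp of the start, and the highest non-CpG site; other named sites were chosen after their values were seen. Of the list genes, the 3 largest rises and falls were named. Computations ran in Python 3.11.15 with scipy 1.17.1, numpy 2.4.6 and pandas 2.3.3.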

Additional observations from a re-analysis of the deposited data

How the results depend on the processing

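No paired analysis was possible because each group had 1 library. The background of windows around gene starts was chosen after seeing the data. Every direction of a locus sum is relative to the CCGG totals: the median log2 ratio of gene windows was 0.05 with these, -0.11 under median-ratio scaling and -0.18 with the divisors of the RPM values. The CCGG log2 ratios under median-ratio scaling were 0.065 at Gata4, -0.081 at Gata6, 0.046 at Sox17, -0.32 at Sox7 and -0.065 at Foxa2. Sox7 was now called and Gata4 was not. With the RPM divisors they were -0.0051 at Gata4, -0.15 at Gata6, -0.024 at Sox17, -0.39 at Sox7 (called) and -0.14 at Foxa2. Sox7 was also called without the 1000 highest sites of the genome (-0.20), with unlisted sites as 0 (-0.18) and without its highest site (-0.24). It was not called over sites listed in both libraries (-0.091), over full-match alignments (-0.15) or in the narrowed locus (-0.17). In loci narrowed by 20 kb at each end, tested among gene windows of full flanks, the ratios were 0.12 at Gata4 (no longer called), -0.021 at Gata6, -0.22 at Sox17 and 0.40 at Foxa2 (called, adjusted p 0.0454 by Fisher's exact test), so the Sox17 and Foxa2 sums depend on the flanks. Near the Gata6 start the ratio of 2.26 within 1000 bp was 0.080 within 5000 bp, and at Foxa2 it turned from -0.45 within 1000 bp to 0.088 within 5000 bp.

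Calls at the 5 loci numbered 29 up and 20 down. Median-ratio scaling gave 18 up and 31 down (8.43% and 15.0% of all sites), the RPM divisors 15 and 33 (7.33% and 16.3%), and unlisted sites as 0 gave 44 and 40 (18.1% and 20.7%). Over full-match alignments 48 of the 49 calls remained, without Gata6 position 11071565. Of the 49 called sites, 38 and 35 were also called under these scalings, 48 with 1 site per run of shared reads and 37 among sites listed in both libraries. Among the sites named, the ratio changed sign without a call at Gata4 positions 63229852 (-0.15 and -0.22 under the scalings) and 63273046 (-0.015 and -0.085) and Foxa2 position 148024833 (-0.067 with the RPM divisors). The list of 43 genes had 2 windows higher and 16 lower under median-ratio scaling, and 15 higher and 8 lower with unlisted sites as 0, where 43.95% and 44.3% of all gene windows were called (17.8% and 61.5% of those higher).

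On their own totals, the CCAGG and CCTGG ratios were -0.19 at Gata4, -0.092 at Gata6, -0.031 at Sox17, -0.65 at Sox7 (called) and -0.57 at Foxa2 (called). With unlisted sites as 0 they were 0.076 at Sox7 and -0.21 at Foxa2, and more than 100 bp from a CCGG site 0.34 at Sox7. With sites listed in both libraries they were 0.16 at Gata4, 0.19 at Gata6 and 0.60 at Sox17, all without a call. The cause of these changes was not tested.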
